A study of Caenorhabditis elegans with 2 samples.

Results

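The X chromosome of Caenorhabditis elegans held 438 of the 1843 NHR-2 peaks that the authors' thresholded list places on nuclear chromosomes, with 1405 on chromosomes I to V; another 18 lay on the mitochondrial chromosome. These 438 peaks are all rows of that list placed on X in build ce11. Their strength was not used to choose them within the list, but the list itself keeps only regions that passed the authors' threshold and so favours strong ones. NHR-2 binding was measured by chromatin immunoprecipitation and sequencing (ChIP-seq), in which DNA bound to a protein is pulled down with an antibody and sequenced. The 2 biological replicates were whole embryos of mixed stage with both sexes pooled, of strain OP99 from the CGC, whose genotype is given as unc-119(ed3) III; wgIs99. The strain carries an inserted eGFP-nhr-2 fusion, while the antibody field names nhr-2 itself; whether the antibody bound the tag or NHR-2, and so whether untagged protein was also pulled down, is not given in the labels. Both replicates have the same genotype and no treatment, and the control libraries and any other genotype were not analysed here. The comparisons below therefore set the X chromosome beside chromosomes I to V within the same libraries.

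Nuclear hormone receptors are zinc-finger transcription factors, many of which bind DNA words built around AGGTCA, and the worm genome encodes an unusually large family of them. NHR-2 is a member that is made in the early embryo. In worms, sex is set by the number of X chromosomes relative to autosomes: X-linked signal genes such as sex-1 and ceh-39 keep the male switch gene xol-1 low in XX embryos, and the dosage compensation complex, recruited by SDC-2 and its partners, then lowers expression from both hermaphrodite X chromosomes. That complex first binds recruitment sites on X, many of which carry a longer DNA word whose core is GCGCAGGG.

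The DNA under the 6 strongest X peaks and under the promoter peaks of 3 sex signal and dosage genes is shown first, so that the strength of a peak can be read beside its sequence. Each line gives the summit with 75 bases on each side, on the plus strand of the RefSeq WBcel235 genome, which is build ce11; the summit is the base that the peak caller marked as the top of the peak. Capitals mark any match, on either strand, to 1 of 9 words searched. These were AGGTCA with its variants AGTTCA and GGGTCA, the repeat GAGAGA, the E-box words CAGGTG or CAGCTG or CACGTG, the GATA-type word TGATAA and the recruitment site core GCGCAGGG. Overlapping matches are marked as 1 run.
syd-2 promoter, chrX:10555585-10555735: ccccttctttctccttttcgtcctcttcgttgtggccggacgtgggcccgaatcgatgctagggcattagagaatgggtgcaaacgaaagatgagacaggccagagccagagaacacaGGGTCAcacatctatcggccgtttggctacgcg
ajm-1 intron, chrX:9102289-9102439: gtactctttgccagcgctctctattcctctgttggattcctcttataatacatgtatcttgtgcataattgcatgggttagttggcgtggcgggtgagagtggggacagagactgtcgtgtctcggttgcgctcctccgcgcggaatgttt
cgef-1 intron, chrX:2793554-2793704: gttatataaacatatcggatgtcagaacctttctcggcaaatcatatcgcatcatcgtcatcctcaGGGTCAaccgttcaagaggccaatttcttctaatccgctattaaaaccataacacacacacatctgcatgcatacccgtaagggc
rsd-3 promoter, chrX:11798163-11798313: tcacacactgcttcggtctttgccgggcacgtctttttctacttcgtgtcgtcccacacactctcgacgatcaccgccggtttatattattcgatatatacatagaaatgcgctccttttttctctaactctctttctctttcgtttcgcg
act-4 intron, chrX:4961769-4961919: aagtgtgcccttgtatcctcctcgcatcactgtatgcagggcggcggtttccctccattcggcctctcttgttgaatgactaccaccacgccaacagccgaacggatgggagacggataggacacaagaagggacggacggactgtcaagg
F09A5.3 intron, chrX:13146120-13146270: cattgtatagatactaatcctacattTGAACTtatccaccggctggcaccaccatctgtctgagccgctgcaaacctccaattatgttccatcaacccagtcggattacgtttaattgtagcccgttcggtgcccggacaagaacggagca
sex-1 promoter, chrX:10206141-10206291: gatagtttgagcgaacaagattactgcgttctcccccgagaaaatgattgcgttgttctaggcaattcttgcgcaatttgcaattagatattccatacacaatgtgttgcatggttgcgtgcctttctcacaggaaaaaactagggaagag
ceh-39 promoter, chrX:1856323-1856473: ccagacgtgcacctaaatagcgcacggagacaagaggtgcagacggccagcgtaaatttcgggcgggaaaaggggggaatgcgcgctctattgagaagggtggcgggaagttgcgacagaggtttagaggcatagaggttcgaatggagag
sdc-1 promoter, chrX:16275372-16275522: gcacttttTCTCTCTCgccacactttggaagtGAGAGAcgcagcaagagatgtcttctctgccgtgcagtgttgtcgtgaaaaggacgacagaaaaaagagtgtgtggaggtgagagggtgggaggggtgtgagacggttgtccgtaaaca
Of these 9 windows, the syd-2 and cgef-1 windows held GGGTCA, the F09A5.3 window held AGTTCA and the sdc-1 window held GAGAGA 3 times, while the other 5 windows held none of the 9 words. None of the 9 held AGGTCA.

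A second set is shown because 12 X peaks carried GCGCAGGG within 75 bp of the summit; these peaks were chosen for display after their values were seen. Each line gives 60 bases centred on the word closest to the summit, read in the direction of the word, with the word in capitals and the strand after the coordinates. The name is that of the nearest protein-coding 5′ end.
nspc-17, chrX:14525874-14525933, minus strand: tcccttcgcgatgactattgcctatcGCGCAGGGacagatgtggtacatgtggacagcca
W02H3.3, chrX:11094200-11094259, minus strand: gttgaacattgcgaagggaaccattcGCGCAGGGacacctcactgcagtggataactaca
F20B6.9, chrX:4209240-4209299, minus strand: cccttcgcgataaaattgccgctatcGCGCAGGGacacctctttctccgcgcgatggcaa
mom-1, chrX:6296522-6296581, plus strand: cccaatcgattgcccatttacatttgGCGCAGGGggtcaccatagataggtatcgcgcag
Y41G9A.17, chrX:2997097-2997156, minus strand: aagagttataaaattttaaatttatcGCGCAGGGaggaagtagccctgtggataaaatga
R09A8.2, chrX:12618649-12618708, plus strand: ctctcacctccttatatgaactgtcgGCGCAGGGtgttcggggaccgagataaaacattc
F25E2.2, chrX:806724-806783, plus strand: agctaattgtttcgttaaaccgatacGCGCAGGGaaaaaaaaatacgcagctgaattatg
C46H3.2, chrX:1223888-1223947, minus strand: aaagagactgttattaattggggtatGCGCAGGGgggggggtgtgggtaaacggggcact
xol-1, chrX:8036409-8036468, plus strand: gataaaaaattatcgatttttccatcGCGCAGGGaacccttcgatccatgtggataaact
F22H10.2, chrX:16682146-16682205, minus strand: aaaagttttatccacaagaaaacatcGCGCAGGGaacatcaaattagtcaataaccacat
ins-39, chrX:1345030-1345089, plus strand: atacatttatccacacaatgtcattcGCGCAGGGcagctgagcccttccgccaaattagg
apm-3, chrX:954885-954944, minus strand: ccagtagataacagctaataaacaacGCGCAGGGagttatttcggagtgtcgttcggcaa
The 12 signals ran between 53.6 and 130 with a median of 80.9, against a median of 84.9 over all 438 X peaks. The word lay a median of 29 bp and at most 54.5 bp from the summit, and no pair of the 12 summits lay closer than 121063 bp. Within 75 bp of these 12 summits, AGGTCA was found in 0 and GAGAGA in 1. Of the 12 summits, 4 were in a promoter window, 3 in an intron and 5 between genes.

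The word was found near 12 of 438 X summits (2.74%, 95% exact Clopper-Pearson interval 1.42 to 4.74%) and near 1 of 1405 summits on chromosomes I to V (0.0712%, 0.00180 to 0.396%). Windows of the same length placed 400 bp to either side of the X summits held it in 0 of 876 cases, and consecutive windows of that length over the whole of X held it in 0.0631%, against 0.0401% on chromosomes I to V. In each replicate alone, taking as many of its strongest regions as the thresholded list holds, it was near 10 of 456 X summits in replicate 1 and 9 of 413 in replicate 2, against 0 of 1382 and 1 of 1428 summits on chromosomes I to V. Counted along the genome, GCGCAGGG occurred 81 times on X and 233 times on chromosomes I to V. The thresholded peaks covered 17 of the 81 X occurrences (21.0%) and 3 of the 233 on chromosomes I to V (1.29%). Summed over peaks, their length came to 0.847% of X and 0.583% of chromosomes I to V. The same number of strongest regions covered 17 X occurrences in replicate 1 and 14 in replicate 2, against 1 and 2 on chromosomes I to V. The candidate regions of the series covered 25.9% of the X occurrences and 14.6% of those on chromosomes I to V. A match is a run of letters, and whether the dosage compensation complex sits at these positions was not measured here. All intervals cover counting error only, and peaks that lie close together are not independent of each other.

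**Figure D1:**
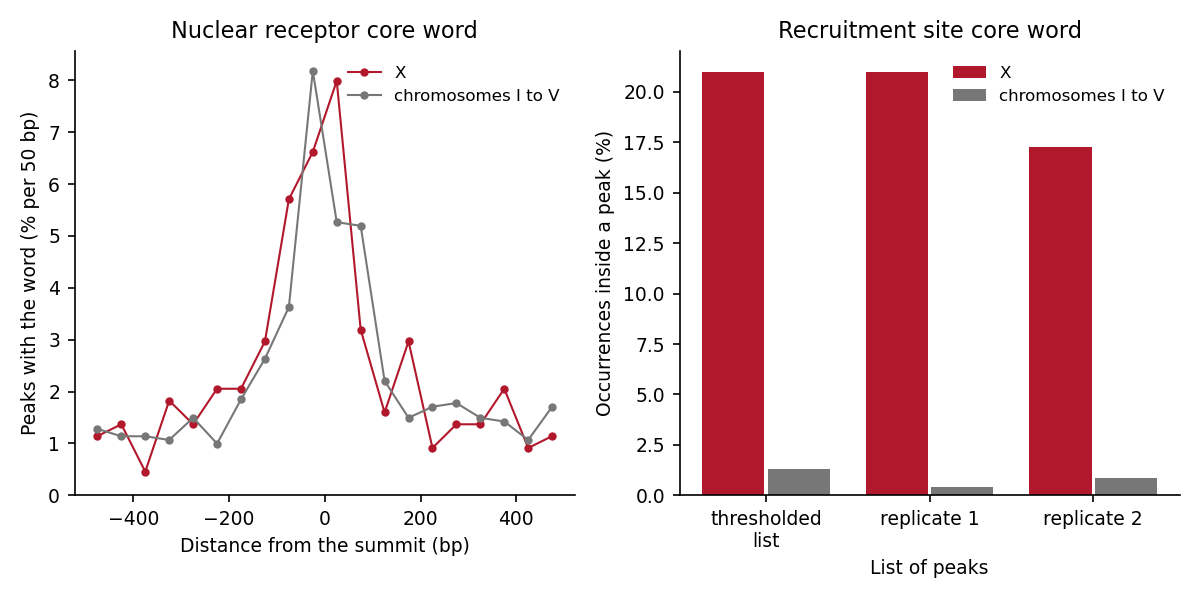
Left: share of peaks with the nuclear receptor core word in each 50 bp step of distance from the summit, for X (red) and chromosomes I to V (grey); the share is highest within about 50 bp of the summit on both. Right: share of all genomic occurrences of the recruitment site core word that lie inside a peak, in the thresholded list and in the same number of strongest regions of each replicate; the X shares are 21.0%, 21.0% and 17.3%, and those on chromosomes I to V are 1.29%, 0.429% and 0.858%.

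The other words differed less between X and the autosomes. AGGTCA was found near 80 X summits (18.3%, 14.8 to 22.2%) and 238 summits on chromosomes I to V (16.9%, 15.0 to 19.0%), against 3.54% of the windows 400 bp to either side of the X summits and 3.98% of consecutive windows over X. Its centre lay a median of 37 bp from the X summit. GGGTCA was near 13.0% of X summits and 12.2% of summits on chromosomes I to V, against 2.28% beside the X summits and 2.50% over X. AGTTCA, a variant of AGGTCA, was less frequent at X summits than beside them, at 6.16% of summits and 11.0% of side windows, against 5.41% and 9.32% on chromosomes I to V. Over X as a whole it was in 11.1% of windows.

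By the difference between the share at X summits and the share beside them, GAGAGA ranked first of all 2080 words of 6 letters, and it did so on chromosomes I to V too. By the ratio of these shares it was lower, at 3.77 on X and 3.31 on chromosomes I to V, than AGGTCA at 5.16 and 4.81 and GGGTCA at 5.70 and 5.18. It was near 130 X summits (29.7%, 25.4 to 34.2%) and 30.0% of summits on chromosomes I to V, against 7.88% beside the X summits and 7.24% over X. It was in 40.0% of X summits in promoter windows but 19.1% of X summits in introns. Among the E-box words, to which helix-loop-helix proteins bind, CAGGTG was near 14.8% of X summits and 14.2% of summits on chromosomes I to V, against 4.22% beside the X summits and 3.62% over X. CAGCTG was near 7.53% and 5.98%, against 2.28% beside the X summits and 2.72% over X, and CACGTG near 3.88% and 5.20%, against 1.14% and 1.98%. The GATA-type word TGATAA was rare at X summits, at 3.20%, and at summits on chromosomes I to V, at 4.27%, against 13.0% beside the X summits and 14.6% over X. Together, 247 X summits (56.4%) had neither AGGTCA nor GAGAGA, against 57.6% on chromosomes I to V. The windows at X summits had a median of 46.4% G and C, against 33.8% beside them, and the part of base composition in the word counts was not tested.

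X held 24.7 peaks per Mb of sequence, and chromosomes I to V held 17.0, a ratio of 1.45. Per 100 protein-coding genes the counts were 16.0 on X and 8.15 on chromosomes I to V. Both densities enter this count: X had more peaks per Mb, and it also had fewer genes per Mb (154, with 209 on the autosomes). The autosomes differed among themselves, with 21.3 peaks per Mb on chromosome III, 20.4 on I, 19.0 on II, 14.8 on IV and 12.1 on V. Signal, the enrichment score that the authors gave each peak, ran between 51.7 and 463 on X with a median of 84.9, and between 51.6 and 2151 on chromosomes I to V with a median of 82.5. The strongest X region outside the list had a signal of 51.6, just under the lowest X peak at 51.7. Read depths were not given in the files, so the depth behind each peak is unknown.

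The X share depended on how many of the strongest regions were taken. Among the strongest 100 regions, 11 of the 88 nuclear ones were on X (12.5%, 6.41 to 21.3%), a share whose interval includes the 17.7% of nuclear sequence that X makes up. In the whole thresholded list it was 23.8% (21.8 to 25.8%), and among all 30000 candidate regions 17.2% (16.8 to 17.7%). In each replicate alone the share over the same 3 sets was also highest at the length of the thresholded list, with 13.7%, 24.8% and 18.6% in replicate 1 and 17.4%, 22.4% and 17.1% in replicate 2. Between ranks 501 and 1000 the share was 28.5% in the series list, 27.5% in replicate 1 and 22.7% in replicate 2. Beside it stood 23.99% between ranks 101 and 500 and 22.1% after rank 1000 to the end of the thresholded list in the series list, 23.8% and 24.9% in replicate 1, and 22.9% and 22.6% in replicate 2. Replicate 2 was thus flat over these ranks, and the higher share between ranks 501 and 1000 was seen in the series list and replicate 1, with overlapping intervals. The strongest X peak ranked 29 in the whole list.

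**Figure D2:**
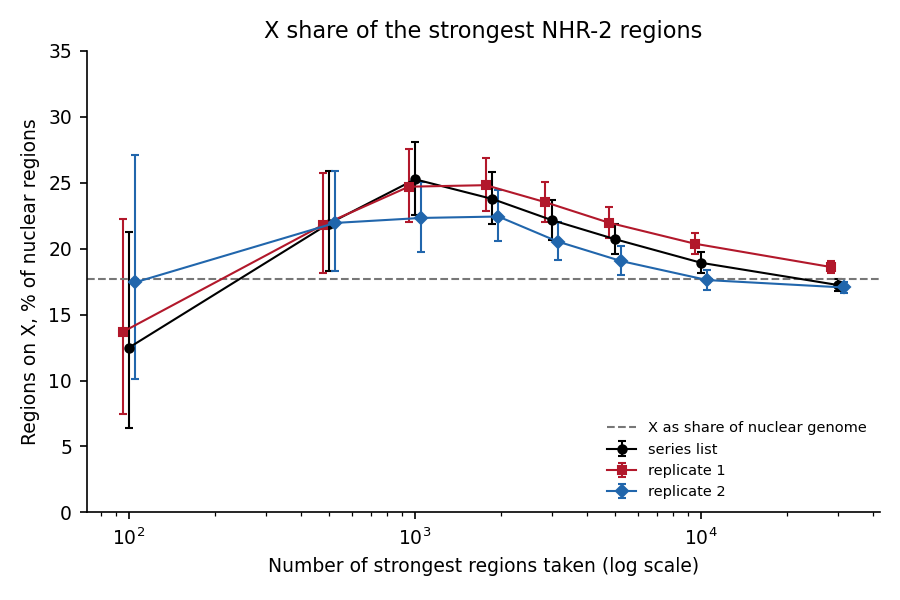
Share of nuclear regions that lie on X (vertical axis, %) against the number of strongest regions taken (log scale), for the series list and each replicate, with 95% exact binomial intervals. The dashed line is the 17.7% of nuclear sequence on X; all 3 lists lie above it between 500 and 5000 regions and return to between 17.1% and 18.6% at 30000.

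Nearly all X peaks had a candidate region in both replicates. The authors made the thresholded list from these candidate lists by agreement between replicates, so such overlap was largely fixed in advance. On chromosomes I to V the share was 99.3%. A candidate region overlapped 435 of the 438 peaks in both (99.3%), and the 3 others, nearest to unk-1, hil-3 and dmd-4, had none in replicate 2. Since the candidate lists are long, stricter counts were also made: 300 X peaks (68.5%) were also within the strongest regions of both replicates, taken to the length of the thresholded list, against 65.6% on chromosomes I to V, and 377 (86.1%) among the strongest 3000 of both. The summits of 410 peaks (93.6%) had a replicate summit within 100 bp in both. The median signal at X peaks was 48.0 in replicate 1 and 39.4 in replicate 2, scales that the authors set separately for each list. Across the 435 peaks the replicate signals had a Spearman rho of 0.556, a description over peaks that share libraries and were selected for strength.

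**Figure D3:**
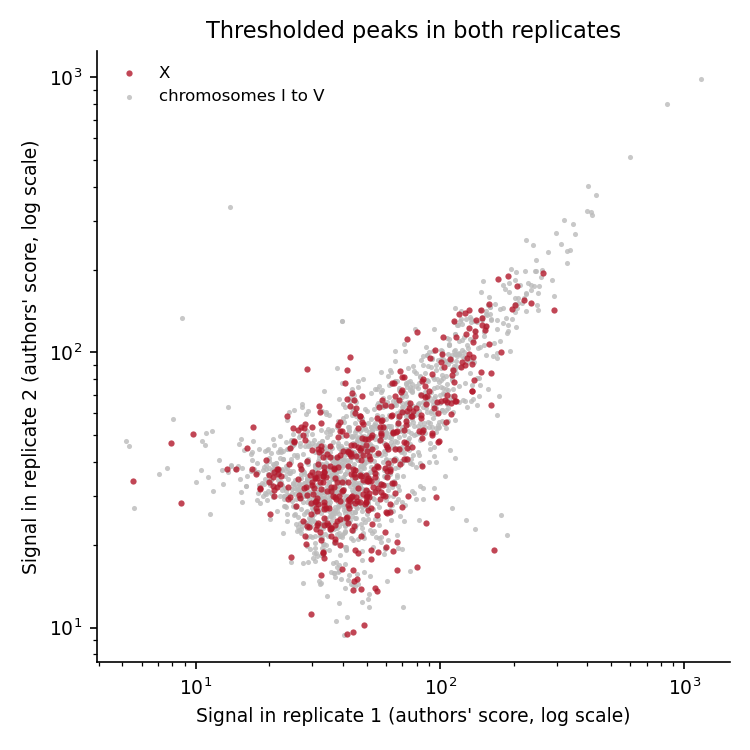
Signal of each thresholded peak in replicate 1 (horizontal) and replicate 2 (vertical), both on log scales, for 435 X peaks (red) and the peaks on chromosomes I to V (grey) with a region in both. The X peaks lie within the cloud of the others, with replicate 1 signals between 5.52 and 291 and replicate 2 signals between 9.45 and 194.

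The strongest X peak lay 421 bp upstream of syd-2, which encodes liprin-alpha, an organiser of presynaptic active zones. Its signal was 463, with 263 in replicate 1 and 194 in replicate 2, where it ranked 25 and 40 of all regions; the summit also lies within F59F5.9, an ncRNA gene. The next was in an intron of ajm-1, an apical junction component, with a signal of 431 and replicate signals of 291 and 142. It lay 11702 bp from the nearest protein-coding 5′ end used here and belonged to no promoter window. Only the outermost annotated 5′ end of each gene was used, so a transcript start inside a gene opened no window. An intron of cgef-1 held a peak of 385, with replicate signals of 236 and 152.

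A peak of 381 lay 267 bp upstream of rsd-3, an epsin-like protein needed for spreading of RNA interference, with replicate signals of 206 and 174. The actin gene act-4 had an intron peak of 376 with replicate signals of 189 and 189, and F09A5.3 an intron peak of 376 with 220 and 155. All 6 of these peaks were in the strongest 100 regions of each replicate. Of the 20 strongest X peaks, 6 were in promoter windows, 6 in introns, 5 between genes and 3 in RNA genes.

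The other 14 lay near genes of varied roles. A peak of 360 lay 3062 bp upstream of sma-9, a Schnurri-type zinc-finger factor of the body-size BMP pathway, and one of 349 lay 1672 bp upstream of ver-3, a receptor kinase related to VEGF receptors. The proneural helix-loop-helix gene lin-32 had a peak of 270 at 1410 bp upstream and one of 281 at 3197 bp downstream of its 5′ end, within the ncRNA gene T14F9.13. The polarity gene lgl-1, a homologue of lethal giant larvae, had a promoter peak of 300 (replicate signals 158 and 150). Promoter peaks of 289 and 276 belonged to mct-6, of the monocarboxylate transporter family, and set-20, which encodes a SET domain protein.

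Introns of eat-17, a Rab GTPase activator of the pharynx, and of F26A10.2 held peaks of 273 and 280. The R04A9.7 promoter held a peak of 271, and peaks of 276 and 261 lay 2299 bp upstream of F52G3.1 and 1892 bp upstream of C39D10.7. Peaks of 347 and 304 lay in the ncRNA genes F45B8.19, near idpp-3, and F52H2.13, near tbc-12. The tbc-12 peak was the 1 of these 20 with very unequal replicate values, 166 in replicate 1 and 19.2 in the best-overlapping region of replicate 2. A second region of replicate 2 with its summit within 100 bp had a signal of 138 and ranked 98.

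By position, 165 X summits (37.7%, 33.1 to 42.4%) lay in a promoter window, set as 1000 bp upstream to 200 bp downstream of an annotated protein-coding 5′ end, against 499 (35.5%, 33.0 to 38.1%) on chromosomes I to V. Every 500 bp along X, 17.7% of positions fell in such a window, and 22.3% on chromosomes I to V, so summits were 2.13 times as frequent there as positions on X and 1.60 times on chromosomes I to V. Space between genes differed in this respect: it held 115 X summits (26.3%, 22.2 to 30.6%), 0.899 times its share of X, against 30.0% (27.6 to 32.4%) and 1.50 times on chromosomes I to V. The same ratios were 0.901 on X and 1.60 on chromosomes I to V in replicate 1, and 0.928 and 1.40 in replicate 2. Introns held 110 X summits (25.1%) and 25.5% of summits on chromosomes I to V, 0.890 and 0.842 times their share of positions. Exons held 11 (2.51%) and 2.78%, or 0.119 times their share on both. Windows were set only at the outermost 5′ end of each gene, so summits at transcript starts inside genes could count as introns or exons.

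**Figure D4:**
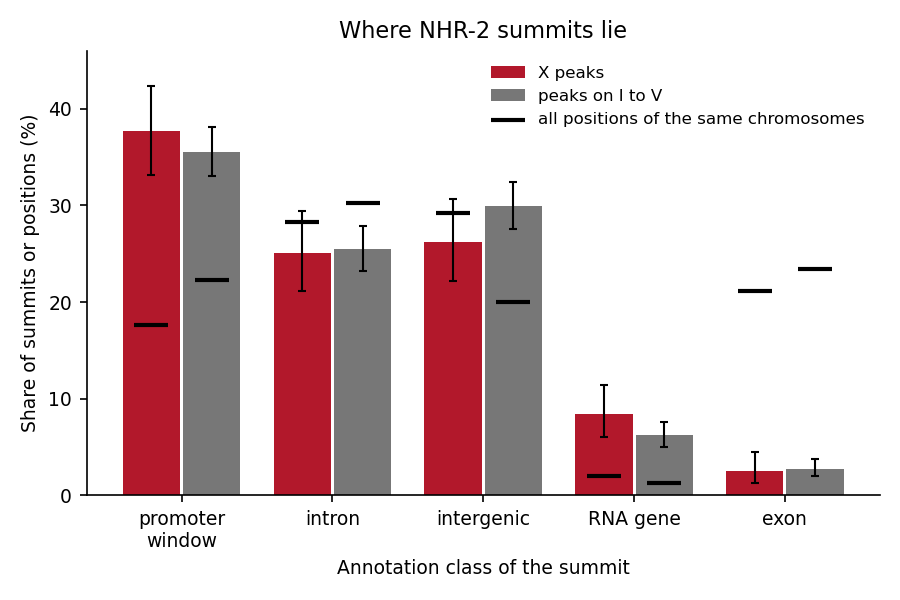
Share of NHR-2 summits in each annotation class (%), on X (red, left of each pair) and on chromosomes I to V (grey), with 95% exact binomial intervals; black dashes give the share of all positions on the same chromosomes. The X dash for space between genes (29.2%) lies above its bar (26.3%), while on chromosomes I to V the dash (19.98%) lies under the bar (30.0%).

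X promoter peaks seldom served 2 genes at once. A summit fell in the windows of 2 or more genes in 15 of the 165 X cases (9.09%, 5.18 to 14.6%), against 161 of 499 on chromosomes I to V (32.3%, 28.2 to 36.6%). The counts were 17 of 166 and 9 of 150 in the replicates on X. X has fewer genes per Mb, as given above, and its part in this difference was not tested. Promoter summits lay a median of 260 bp upstream of the 5′ end on X and 217 bp on chromosomes I to V. Over all summits the median distance to the nearest 5′ end was 1370 bp on X and 1439 bp on chromosomes I to V, and 13.9% of X summits lay more than 5000 bp away, against 16.4%.

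RNA genes took 37 X summits (8.45%, 6.02 to 11.5%) and 6.19% (4.99 to 7.58%) on chromosomes I to V, 4.30 and 4.88 times their share of positions. In nearly all cases these were genes of the broad ncRNA class, which held 47 X summits when summits also in promoter windows are counted. Transfer RNA genes held few summits anywhere: X carries 276 of them, 45.1% of all, and 3 X summits lay in a tRNA gene and 9 within 200 bp, against 3 and 10 on chromosomes I to V. MicroRNA genes with a summit in a promoter window, set as for protein-coding genes, numbered 7 of 74 on X (9.46%) and 24 of 187 on chromosomes I to V (12.8%). Over all protein-coding genes the shares were 6.41% on X and 3.80% on chromosomes I to V. The 7 rested on 4 summits. One of signal 130, with replicate signals of 63.2 and 77.7, lay upstream of mir-54, mir-55 and mir-56 and inside F09A5.3, and one of 64.4 served mir-73 and mir-74. The others were at mir-8196b (53.7) and mir-55b (51.8).

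Of 2731 protein-coding genes on X, 175 had a summit in the promoter window and are called bound here (6.41%). On chromosomes I to V the share was 3.80%, and over the 19973 genes of all nuclear chromosomes it was 4.16%. Of the 30000 candidate regions of the series, 6.2% were in the thresholded list. The median signal at the 175 genes was 79.4, and 170 had 1 summit and 5 had 2.

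Nuclear hormone receptor genes were the list with the most bound members on X. A summit lay in the promoter window of 7 of 27 X-linked receptor genes (25.9%, 11.1 to 46.3%), against 4 of 247 on chromosomes I to V (1.62%, 0.443 to 4.09%) and 6.41% of all X genes. The same 7 genes were bound in each replicate list taken alone, and there too the count on chromosomes I to V was 4. sex-1, the receptor that represses xol-1, lies at chrX:10201329-10205421 on the minus strand and had a signal of 118 at 795 bp upstream, with 67.1 in replicate 1 and 55.6 in replicate 2. nhr-1 had 116 (48.0 and 69.6), nhr-91 had 104 (48.2 and 54.9) and nhr-32 had 100 (64.2 and 51.1). nhr-35, nhr-48 and nhr-71 had 95.9, 70.1 and 59.6. Thus 5 of the 7 lay above the X median of 84.9 and 2 under it.

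sex-1 is also 1 of the 6 named genes of the X signal and its targets, of which sex-1, ceh-39 and sdc-1 were bound while fox-1, xol-1 and sdc-2 were not. ceh-39, a ONECUT homeodomain signal element, had a signal of 69.3 at 226 bp upstream. Its replicate signals were 24.3, at rank 2374, and 44.9, at rank 793, so it was not bound in replicate 1 taken alone. sdc-1, which encodes a zinc-finger partner of SDC-2, had 69.2 at 316 bp upstream, with 50.4 and 34.0. fox-1, which encodes an RNA-binding signal element, had no promoter summit but a peak of 133 within the gene, with replicate signals of 69.3 and 72.0. That peak held AGGTCA, and sex-1 had a second peak of 115 within its body. Taken alone, replicate 1 had a fox-1 promoter summit of 28.9, at rank 1859, so fox-1 was bound there.

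The xol-1 gene lies at chrX:8041313-8044409 on the plus strand. Its strongest candidate region in the promoter window had a signal of 21.7, at rank 9182, but a thresholded peak of 69.7 lay 4883 bp upstream, between genes, with replicate signals of 33.0 and 35.6; this is the xol-1 line among the GCGCAGGG sequences, and its window held that word 2 times. The sdc-2 promoter region reached 50.8, at rank 1902, and missed the list narrowly. In the wider list of sex determination and dosage genes, dpy-22, a Mediator subunit, was the 4th bound of 7 on X, with a signal of 53.8, against 1 of 18 on chromosomes I to V; over all genes the shares were 6.41% on X and 3.80% on chromosomes I to V. ceh-39 dropped out without replicate 2, and of the 4 only sex-1 was bound among the strongest 930 peaks. With the promoter window cut to 500 bp upstream and 100 bp downstream, sex-1 and dpy-22 were not bound, while ceh-39 and sdc-1 were.

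Of the extracellular matrix and adhesion genes, 1 of 32 on chromosomes I to V was bound (3.13%), close to the 3.80% of all genes there. On X, where the share of all genes was 6.41%, 4 of 18 members were bound (22.2%, 6.41 to 47.6%). They were lam-2, the laminin gamma chain, with 111, the heparan sulfate sulfotransferases hst-2 with 89.2 and hst-6 with 72.7, and sym-1, a leucine-rich repeat protein of the embryonic matrix, with 64.4. The lam-2 summit lay 979 bp upstream, near the edge of the window, with 60.3 in replicate 1; the matching region of replicate 2 had 45.4, but its summit fell outside the window, and the strongest replicate 2 region with its summit inside had 19.8. In replicate 2 alone lam-2 and sym-1 were not bound, which leaves hst-2 and hst-6. Counting any summit between 5000 bp upstream of the 5′ end and the 3′ end, 12 of the 18 had 1 (66.7%), against 11 of 32 on chromosomes I to V (34.4%), 16.3% of all X genes and 10.1% of all genes on chromosomes I to V. Length differs between these sets. Median gene lengths were 7939 bp for the 18 and 2548 bp for all X genes. On chromosomes I to V they were 13095 bp for the 32 and 1964 bp for all genes. The part of length in the counts was not tested.

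Neuronal genes of the synapse list gave 4 bound of 65 on X (6.15%), close to the 6.41% of all X genes, against 0 of 164 on chromosomes I to V. They were syd-2, the innexin gap junction gene inx-2 with 139 (83.4 and 57.7), and the glutamate receptor genes glr-8 with 109 and glr-6 with 62.9. Both glr summits were also in the window of a nearer gene. The glr-8 summit lay 542 bp upstream of glr-8 and 295 bp upstream of cdf-1. The glr-6 summit lay 289 bp upstream of glr-6 and 249 bp upstream of asg-2. The glr-6 peak had replicate signals of 45.7 and 15.0, the second at rank 10252. Homeodomain genes gave 3 of 29 on X and 9 of 74 on chromosomes I to V, and the X ones were ceh-40, a TALE-class cofactor, with 127 (62.7 and 64.1), ceh-89 with 88.3, and ceh-39. ceh-89 and glr-6 were not bound in replicate 2 alone.

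Most other lists had 1 bound member or none on X. The single ones were cdk-4, the kinase partner of cyclin D, with 136 (42.8 and 96.2), the ER chaperone hsp-3 with 117, the ribosomal gene rpl-11.2 with 116, the immunoglobulin-family gene rig-1 with 83.4, the Mad-type factor mdl-1 with 81.0, the insulin-like gene ins-39 with 64.2 and mom-1, the Porcupine homologue of Wnt secretion, with 59.6. These were 1 each of 4 cell cycle, 3 heat shock, 2 ribosomal, 19 axon guidance, 10 helix-loop-helix, 37 neuropeptide and 5 Wnt genes on X. On chromosomes I to V, cell cycle had 11 of 54 bound, heat shock 7 of 19 and ribosomal 25 of 81. Axon guidance had 4 of 33 there, helix-loop-helix 3 of 32, neuropeptides 1 of 108 and Wnt 6 of 26. Over all genes the shares were 6.41% on X and 3.80% on chromosomes I to V. hsp-3 and mom-1 each had 2 promoter summits, and mom-1 also had an intron peak of 93.5, which carries GCGCAGGG 2 times. The mom-1 promoter summit of 59.6 lay within a tRNA gene. It was 807 bp upstream of mom-1 and nearer to lev-9, at 573 bp upstream. No member was bound on X among 34 chemoreceptors, 30 cuticle collagens, 19 muscle genes and 11 GATA, Sox and T-box genes. The same held for 10 forkhead and other fate factors and 10 Ras, EGF and FGF genes. It also held for 6 TGF-beta and insulin signalling genes, a list that does not include ins-39, and 4 Notch genes. The intervals of short lists are wide: 0 bound genes allow a share of up to 30.8% for 10 genes and 10.3% for the 34 chemoreceptors (upper exact limits), above the 6.41% of all X genes.

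Some X genes drew several peaks. Of 2731 X genes, 27 had 3 or more summits between 5000 bp upstream and the 3′ end, against 103 of 17242 on chromosomes I to V. On X, 5 genes had 5: ddr-2, a discoidin domain receptor, vab-3, the Pax6 homologue, igcm-3, an immunoglobulin-like adhesion gene, W03G11.4 and C16B8.4. vab-3, on the plus strand at chrX:10499890-10519580, had no summit in the promoter window at its outermost 5′ end. Its 5 summits all lay in the body, with signals of 163, 155, 113, 101 and 81.6. ddr-2 had 4 body summits between 76.9 and 166, and its highest peak of 223 lay upstream. ncam-1, an NCAM homologue, had 4 summits of 251, 206, 78.2 and 77.6, all within the gene, and dgn-1, a dystroglycan, had 3 within the gene between 83.0 and 126 and a highest peak of 182. igcm-4 had 4 with a promoter signal of 153, and F09A5.3 and hst-3.2, a heparan sulfate sulfotransferase, had 4 each. A longer gene has a longer stretch in which summits are counted, and the part of length in these counts was not tested.

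Peaks were found in every 1 Mb of X. Counts per 1 Mb ran between 12 and 43 over the 17 full bins of X, with a variance 2.98 times the mean, against 4.14 times over 80 bins on chromosomes I to V; single autosomes ran between 2.20 on chromosome I and 7.29 on chromosome V, so X lay within their range. The richest bin, from 2 to 3 Mb, had 43 peaks, and the poorest, from 15 to 16 Mb, had 12. Each replicate alone gave 45 and 45 for the first and 13 and 12 for the second. Counts of peaks and genes per bin had a Spearman rho of 0.162 over the 17 bins, and counts in the 2 replicates one of 0.878. Cut into 3 stretches of equal length, X held 162, 140 and 136 peaks from left to right.

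The median distance between neighbouring summits was 22917 bp on X and 18398 bp on chromosomes I to V, even though X had more peaks per Mb. Gaps over 100 kb were 49 of 437 on X and 274 of 1400 on chromosomes I to V, and the longest was 306653 bp on X and 1595351 bp on chromosomes I to V. That X gap, at chrX:15841280-16147933, holds 36 protein-coding genes and 86 candidate regions, the strongest at 45.5. Gaps under 2000 bp were 73 on X (16.7%) and 276 on chromosomes I to V (19.7%). Joined at that distance, the X peaks formed 365 groups, of which 312 were single peaks, 38 were pairs and 15 held 3 or more. The largest, at C16B8.4, held 5 peaks. On chromosomes I to V there were 1129 groups, with 950 single peaks, 118 pairs and 61 of 3 or more, the largest with 8. Groups of 2 or more held 28.8% of X summits and 32.4% of those on chromosomes I to V.

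**Figure D5:**
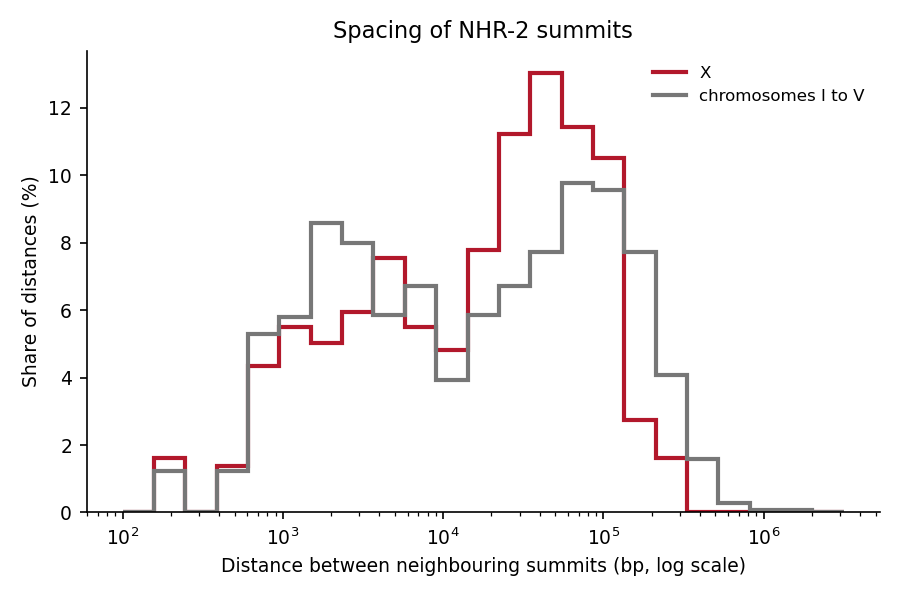
Share of the distances between neighbouring summits (%) by length (bp, log scale), for 437 distances on X (red) and 1400 on chromosomes I to V (grey). Both have a short and a long mode; the X curve ends at 306653 bp and the other reaches 1595351 bp.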

How the data were processed

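NHR-2 ChIP-seq was deposited for 2 biological replicates of 1 group. Each list is in the ENCODE narrowPeak layout; its signal value is the authors' own enrichment score per region, made from ChIP and control alignments, per the texts deposited with the libraries. The thresholded list was made by the authors from the candidate lists with the irreproducible discovery rate. For the aligner, the caller and the read depth: not given in the sources used here. Replicate numbers came from the labels; the labels do not say whether the embryos came from separate cultures.

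Lists on build ce11 were annotated with Ensembl release 115 (19973 protein-coding genes) and the RefSeq WBcel235 genome, whose chromosome lengths hold every region. Classes were assigned in the order promoter window, RNA gene, exon, intron, pseudogene, between genes. The 5′ end of a gene was the outermost of its annotation, and starts of shorter transcripts were not used. A replicate region was matched to a peak by at least 1 bp, taking the most overlap. Shares carry 95% exact Clopper-Pearson intervals; no test was made, since there is 1 group. Genes named were the nearest within 5000 bp of the 20 strongest X peaks, up to 4 bound members per list with the highest signal, the 10 genes with most summits, and 6 sex signal genes; beyond these, other bound members of short lists, dpy-22, nhr-35, nhr-48, nhr-71, microRNAs and the genes nearest to GCGCAGGG peaks were named after their values were seen. The genes cdf-1, asg-2 and lev-9 were also named after their values were seen. The members, 20 gene lists and 9 words were chosen with earlier results of these data known. 4 symbols on X stand for more than 1 gene ID, and none of these was bound. 6 list names had no match in the annotation. Steps were checked on simulated data. Python 3.11.15, pandas 2.3.3, NumPy 2.4.6, SciPy 1.17.1 and Matplotlib 3.10.9 were used.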

Additional observations from a re-analysis of the deposited data

How the results depend on the processing

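No paired analysis was possible because the study has a single group. Leaving out either replicate, by taking the strongest regions of the other to the length of the thresholded list, gave an X share of 22.4 to 24.8%, 157 to 177 bound X genes, 36.3 to 36.4% of X summits in promoter windows, 7.26 to 8.77% in RNA genes, AGGTCA near 16.5 to 19.3% and a median gap of 21921 to 26442 bp. The replicate lists shared 130 and 150 of the 175 bound X genes. Over 6 alternatives the density of X over that of chromosomes I to V was 1.35 to 1.54. Keeping the strongest 930 peaks left 81 bound X genes and a median gap of 46930 bp. A promoter window of 500 bp upstream to 100 bp downstream held 28.1% of X summits, and 1 of 2000 bp to 500 bp held 48.4%. AGGTCA was within 50 bp of 13.9% and within 100 bp of 22.4% of X summits. The share of X peaks found in both replicates was 86.1% with 50% reciprocal overlap, 93.6% with summits within 100 bp, 68.5% at the length of the thresholded list and 86.1% among the strongest 3000. Of the 34 named genes that were bound, 30 were bound in replicate 2 alone, 33 in replicate 1 alone and 24 among the strongest 930. Alternatives for GCGCAGGG, classes and receptor genes by replicate were chosen after seeing the data. The absence of read depths limits what weak regions can show.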

Other observations

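Repeat-masked sequence was sparse at X summits. On average 8.19% of the window within 75 bp of the summit was masked on X and 12.3% on chromosomes I to V. Over all sequence, 30.6% of X and 36.8% of chromosomes I to V was masked. Over 50% of the window was masked in 6 X summits (1.37%) and in 59 on chromosomes I to V (4.20%). Among the words of 6 letters, CGCAAC ranked 13 of 2080 by its excess at X summits over the windows beside them, with 17.8% and 2.97%, and ranked 55 on chromosomes I to V, with 11.6% and 3.52%; AAGAGG ranked 4 on X and 25 on chromosomes I to V. These ranks come from the same peaks in which they were noticed, and the differences between X and chromosomes I to V were not tested.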
